A study of Homo sapiens with 5 samples.

Results

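Genes of the NF-kB pathway, 10 in all, were followed through 5 samples of the MDA-MB-468 line, an established triple-negative breast carcinoma cell line: NFKBIA, TNFAIP3, NFKBIZ, NFKB1, NFKB2, RELA, RELB, BIRC3, TNFAIP2 and ICAM1. They were chosen by name, as genes of the pathway and its feedback, with earlier results of these data known. Counts of them set beside all genes are therefore a description only. They make up 10 of the 33538 genes in the deposited matrix. The HA FOSL1 sample carried FOSL1 in the system the labels call HA, and its own control was the HA control. The VPR FOSL1 gRNA2 and VPR FOSL1 gRNA3 samples carried guides to FOSL1 in the system called VPR, and both were set against the same VPR control. Each group was 1 sample of the same line, all 5 were tagged with hashtag antibodies and run as 1 single-cell 3' library, and the labels do not spell out HA or VPR. A treatment with 5 uM 5-fluorouracil is named for the series, without stating if these cells had it.

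NF-kB is a family of transcription factors made of pairs of the subunits RELA, RELB and REL and the processed products of NFKB1 and NFKB2. In resting cells inhibitors such as the NFKBIA protein hold the pairs in the cytoplasm, and kinases activated by TNF, interleukin-1 or Toll-like receptors release them. The released factors induce inflammatory and survival genes and, among them, NFKBIA and TNFAIP3, which shut the pathway off again. FOSL1 encodes a subunit of AP-1, another family of inducible factors that often acts on the same inflammatory genes.

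The promoters of the genes on which the results turn are shown first, since BIRC3, ICAM1 and NFKBIA are textbook NF-kB targets and NFKBIZ was the gene called lower over the 3 FOSL1 samples. Each sequence holds the 250 bases before the transcription start, from RefSeq (GRCh38.p14), which had entries for 9 of the 10 genes and 14 starts in all. RELB had no entry. Capitals mark matches on either strand to the kappa-B consensus, the usual DNA motif of NF-kB, or to the letters GGAAATTCC, searched because that form lies in the ICAM1 promoter. Where both matched, they overlapped.
ICAM1, chr19:10270870-10271119, plus strand: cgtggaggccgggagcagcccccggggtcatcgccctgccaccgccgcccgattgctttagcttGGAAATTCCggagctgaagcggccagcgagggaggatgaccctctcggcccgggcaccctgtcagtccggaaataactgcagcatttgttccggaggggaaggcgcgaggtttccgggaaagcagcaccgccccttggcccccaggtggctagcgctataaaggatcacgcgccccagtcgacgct
BIRC3, chr11:102317234-102317483, plus strand: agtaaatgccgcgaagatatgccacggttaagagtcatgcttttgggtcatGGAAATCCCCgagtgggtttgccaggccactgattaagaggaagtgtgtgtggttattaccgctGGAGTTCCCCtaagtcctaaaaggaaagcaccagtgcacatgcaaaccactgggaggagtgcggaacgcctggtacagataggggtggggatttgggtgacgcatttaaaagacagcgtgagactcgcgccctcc
NFKBIA, chr14:35404750-35404999, minus strand: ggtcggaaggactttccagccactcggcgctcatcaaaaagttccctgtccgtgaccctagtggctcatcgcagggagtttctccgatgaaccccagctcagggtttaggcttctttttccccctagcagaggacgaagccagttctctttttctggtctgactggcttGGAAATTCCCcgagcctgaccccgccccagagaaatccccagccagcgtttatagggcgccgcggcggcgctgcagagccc
NFKBIZ, start 1, chr3:101827740-101827989, plus strand: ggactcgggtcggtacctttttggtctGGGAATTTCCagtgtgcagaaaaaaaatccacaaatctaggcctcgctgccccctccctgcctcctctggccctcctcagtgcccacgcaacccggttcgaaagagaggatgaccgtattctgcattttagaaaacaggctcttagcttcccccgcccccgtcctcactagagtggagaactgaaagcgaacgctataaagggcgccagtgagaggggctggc
NFKBIZ, start 2, chr3:101849264-101849513, plus strand: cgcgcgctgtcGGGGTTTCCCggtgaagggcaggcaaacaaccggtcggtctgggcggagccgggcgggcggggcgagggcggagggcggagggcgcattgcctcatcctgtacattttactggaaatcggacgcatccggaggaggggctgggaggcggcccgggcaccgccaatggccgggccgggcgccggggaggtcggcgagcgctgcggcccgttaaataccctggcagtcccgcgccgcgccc

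Among all 35116 promoters of the table, 9.961% held the kappa-B consensus and 0.4129% held GGAAATTCC. These shares are per window and not per gene. NFKB2 had 3 windows and NFKBIZ, NFKB1 and RELA had 2 each, which gives a gene more than 1 place for a match. The kappa-B consensus was found before at least 1 start of NFKBIA, TNFAIP3, NFKBIZ, NFKB1, NFKB2 and BIRC3, and in no window of RELA, TNFAIP2 or ICAM1. NFKB1 start 2 and NFKB2 start 1 also held none. The only TNFAIP2 window lies inside the annotated gene, ending at base 103123460 where the gene begins at 103121469. The TNFAIP3 window does too, ending at 137867258 where the gene begins at 137866349. The bases before these gene beginnings were not searched. TNFAIP3 held GGAAAGTCCC, 67 to 58 bases before the start, and GGAAATCCCC, 55 to 46 bases before it. The ICAM1 window held GGAAATTCC 186 to 178 bases before the start, a form that the consensus as searched does not cover. NFKBIA, the NFKBIZ start 1 and 1 NFKB1 start also held GGAAATTCC on either strand. The AP-1 letters TGANTCA, present in 6.573% of all promoters, were in none of the 14 windows. A match is a run of letters and not a measured binding site, and NFKBIZ, which was lower, and BIRC3, which was higher in the HA FOSL1 sample, both had kappa-B matches.

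**Figure D1:**
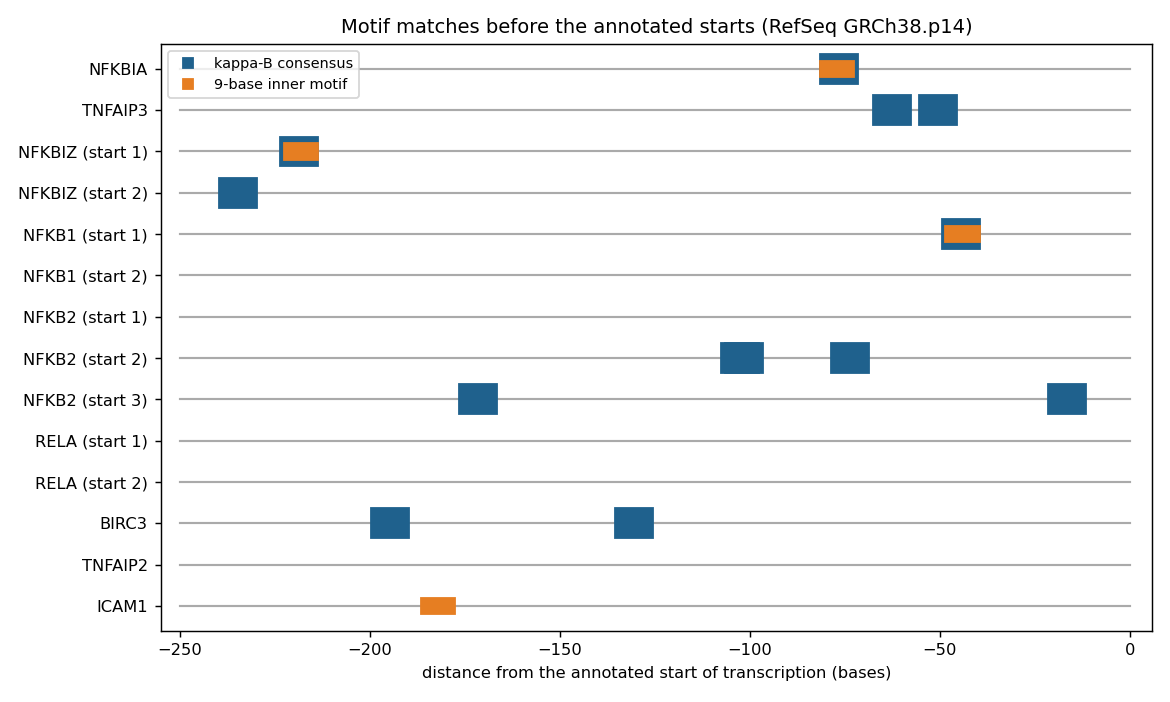
Positions of motif matches in the 250 bases before each transcription start of the 9 genes with a promoter entry; the x axis is the distance from the start in bases and each line is 1 start, with blue for the kappa-B consensus and orange for GGAAATTCC (the inner motif of the legend). BIRC3 has 2 kappa-B matches, ICAM1 has 1 GGAAATTCC match at 186 to 178 bases before the start, and no window has a TGANTCA match.

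After filtering, 14642 cells were kept, between 1826 (HA FOSL1) and 4299 (VPR FOSL1 gRNA3) per sample, with 42058533 to 85556699 gene UMIs summed over them. FOSL1 itself stood at 63.5 CPM (a gene's share of all gene UMIs of a sample, on a common scale) in HA FOSL1 cells, against 8.96 CPM in the HA control. It stood at 100.5 CPM with gRNA2 and 94.3 CPM with gRNA3, against 8.91 CPM in the VPR control, so the labels held. The HA sample had the lowest FOSL1 level by count of the 3 FOSL1 samples. Whether 3' counts capture the FOSL1 RNA of both systems equally was not tested. The 7 epithelial markers fixed for this line, among them KRT18 and EGFR, were each at 20 CPM or more in every sample and summed to 10593 CPM in HA FOSL1 cells, against 6148 CPM in the HA control. Fibroblast markers summed to at most 4.38 CPM and endothelial markers to at most 1.81 CPM, and the leukocyte list to at most 19.4 CPM, most of it CD14. Median depth was highest in HA FOSL1, at 20768.5 UMIs per cell against 15401.5 in the HA control, while guide cells had 17414.5 (gRNA2) and 18121 (gRNA3) against 15810 in the VPR control. Median mitochondrial shares ran from 9.80% in HA FOSL1 cells to 11.5% in the HA control. The part of epithelial markers, depth and mitochondrial share in the results was not tested, apart from the shares of cells at equal depth.

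NFKBIA, TNFAIP3 and NFKBIZ are the inhibitors and feedback genes of the set, and they did not move together. NFKBIZ, a nuclear IkB protein that acts with NF-kB on a subset of late inflammatory genes, was lower in all 3 FOSL1 samples than in either control. It stood at 46.3 CPM in HA FOSL1 cells, against 58.9 CPM in the HA control. It stood at 49.7 CPM with gRNA2 and 48.6 CPM with gRNA3, against 65.8 CPM in the VPR control. The highest FOSL1 sample was thus below the lowest control, and the 3 FOSL1 samples had overlapping 95% Poisson intervals among themselves. On the log2 scale of CPM + 1, HA FOSL1 lay at -0.34 from its control (95% interval -0.42 to -0.26), gRNA2 at -0.40 (-0.47 to -0.32) and gRNA3 at -0.43 (-0.50 to -0.36). These intervals are exact conditional binomial ones and, like all intervals given here, cover counting error only, since each group was 1 sample.

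NFKBIA, the inhibitor that NF-kB induces against itself, stood at 47.5 CPM in HA FOSL1 cells, against 56.0 CPM in the HA control. It stood at 42.1 CPM with gRNA2 and 38.7 CPM with gRNA3, against 44.4 CPM in the VPR control. The HA control was the only sample whose interval lay above all others, and HA FOSL1, the VPR control and gRNA2 formed a run in which neighbours overlapped. HA FOSL1 had a log2 ratio of -0.23 (-0.31 to -0.16), gRNA2 of -0.08 (-0.16 to 0.01) and gRNA3 of -0.20 (-0.27 to -0.12). Set against the VPR control, HA FOSL1 was at 0.09, so the direction of NFKBIA in the HA arm depended on which control sample was used. NFKBIA stood at 55.4 CPM in the free RNA of near-empty droplets.

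TNFAIP3, an enzyme that edits ubiquitin chains and ends NF-kB signalling, had the fewest UMIs of the 10 genes and differed in opposite directions in the HA and VPR systems. It stood at 16.1 CPM in HA FOSL1 cells, against 9.61 CPM in the HA control. It stood at 5.41 CPM with gRNA2 and 4.72 CPM with gRNA3, against 7.41 CPM in the VPR control, from 260, 404 and 332 UMIs. HA FOSL1 had a log2 ratio of 0.69 (0.54 to 0.84), gRNA2 of -0.39 (-0.60 to -0.19) and gRNA3 of -0.56 (-0.74 to -0.37). Only the 2 guide samples had overlapping levels, and every other neighbour in the order was apart.

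Among the subunits, RELB and NFKB2, which form the dimer of the alternative pathway and are themselves NF-kB targets, were higher in HA FOSL1 cells than in any other sample. RELB stood at 19.9 CPM in HA FOSL1 cells, against 14.6 CPM in the HA control, a log2 ratio of 0.42 (0.29 to 0.56). With guides, RELB stood at 10.7 CPM (gRNA2) and 10.96 CPM (gRNA3), against 12.9 CPM in the VPR control, with log2 ratios of -0.24 (-0.40 to -0.08) and -0.22 (-0.36 to -0.08). Both directions lay outside counting error, and they were opposite.

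NFKB2 stood at 15.2 CPM in HA FOSL1 cells, against 10.99 CPM in the HA control, a log2 ratio of 0.44 (0.29 to 0.58). It stood at 10.0 CPM with gRNA2 and 10.5 CPM with gRNA3, against 11.4 CPM in the VPR control. The log2 ratios were -0.17 (-0.34 to -0.003) with gRNA2 and -0.11 (-0.25 to 0.04) with gRNA3. Apart from HA FOSL1, every neighbour in the order of NFKB2 levels overlapped.

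RELA, the subunit of the classical dimer, stood at 47.6 CPM in HA FOSL1 cells, against 39.3 CPM in the HA control, a log2 ratio of 0.27 (0.18 to 0.36). It stood at 42.3 CPM with gRNA2 and 39.6 CPM with gRNA3, against 40.0 CPM in the VPR control, and the log2 ratios, 0.08 and -0.02, had intervals that held 0. NFKB1, whose product pairs with RELA, was the flattest gene of the set. It stood at 25.1 CPM in HA FOSL1 cells against 24.3 CPM in the HA control, and at 23.5 CPM (gRNA2) and 23.0 CPM (gRNA3) against 25.0 CPM in the VPR control. Neighbouring NFKB1 levels overlapped throughout, and its log2 ratios were 0.04, -0.09 and -0.12.

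Of the 10 genes, BIRC3, TNFAIP2 and ICAM1 had the largest differences, and these lay in the HA arm. ICAM1, the adhesion receptor that leukocyte integrins bind, stood at 98.7 CPM in HA FOSL1 cells, against 53.5 CPM in the HA control, a log2 ratio of 0.87 (0.80 to 0.94). It stood at 50.3 CPM with gRNA2 and 55.7 CPM with gRNA3, against 47.5 CPM in the VPR control. The guide ratios were 0.08, with an interval that held 0, and 0.22 (0.15 to 0.30). ICAM1 was thus the only gene of the 10 with a log2 ratio above 0 in the gRNA3 arm.

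TNFAIP2, a TNF-induced gene, stood at 120.3 CPM in HA FOSL1 cells, against 67.4 CPM in the HA control, a log2 ratio of 0.83 (0.77 to 0.89). It stood at 74.2 CPM with gRNA2 and 64.3 CPM with gRNA3, against 70.4 CPM in the VPR control. The 2 guides lay on opposite sides of their shared control, at 0.07 (0.01 to 0.14) and -0.13 (-0.19 to -0.07).

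BIRC3, a ubiquitin ligase of the inhibitor-of-apoptosis family that works at TNF receptors, stood at 37.8 CPM in HA FOSL1 cells, against 20.6 CPM in the HA control, a log2 ratio of 0.85 (0.74 to 0.95). It stood at 18.2 CPM with gRNA2 and 13.97 CPM with gRNA3, against 17.1 CPM in the VPR control, with log2 ratios of 0.08 (-0.05 to 0.22) and -0.27 (-0.40 to -0.15). For BIRC3, TNFAIP2 and ICAM1 alike, the HA FOSL1 sample was above the other 4, and its interval was apart from theirs. In free RNA these 3 genes stood at 22.2, 63.9 and 52.5 CPM.

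**Figure D2:**
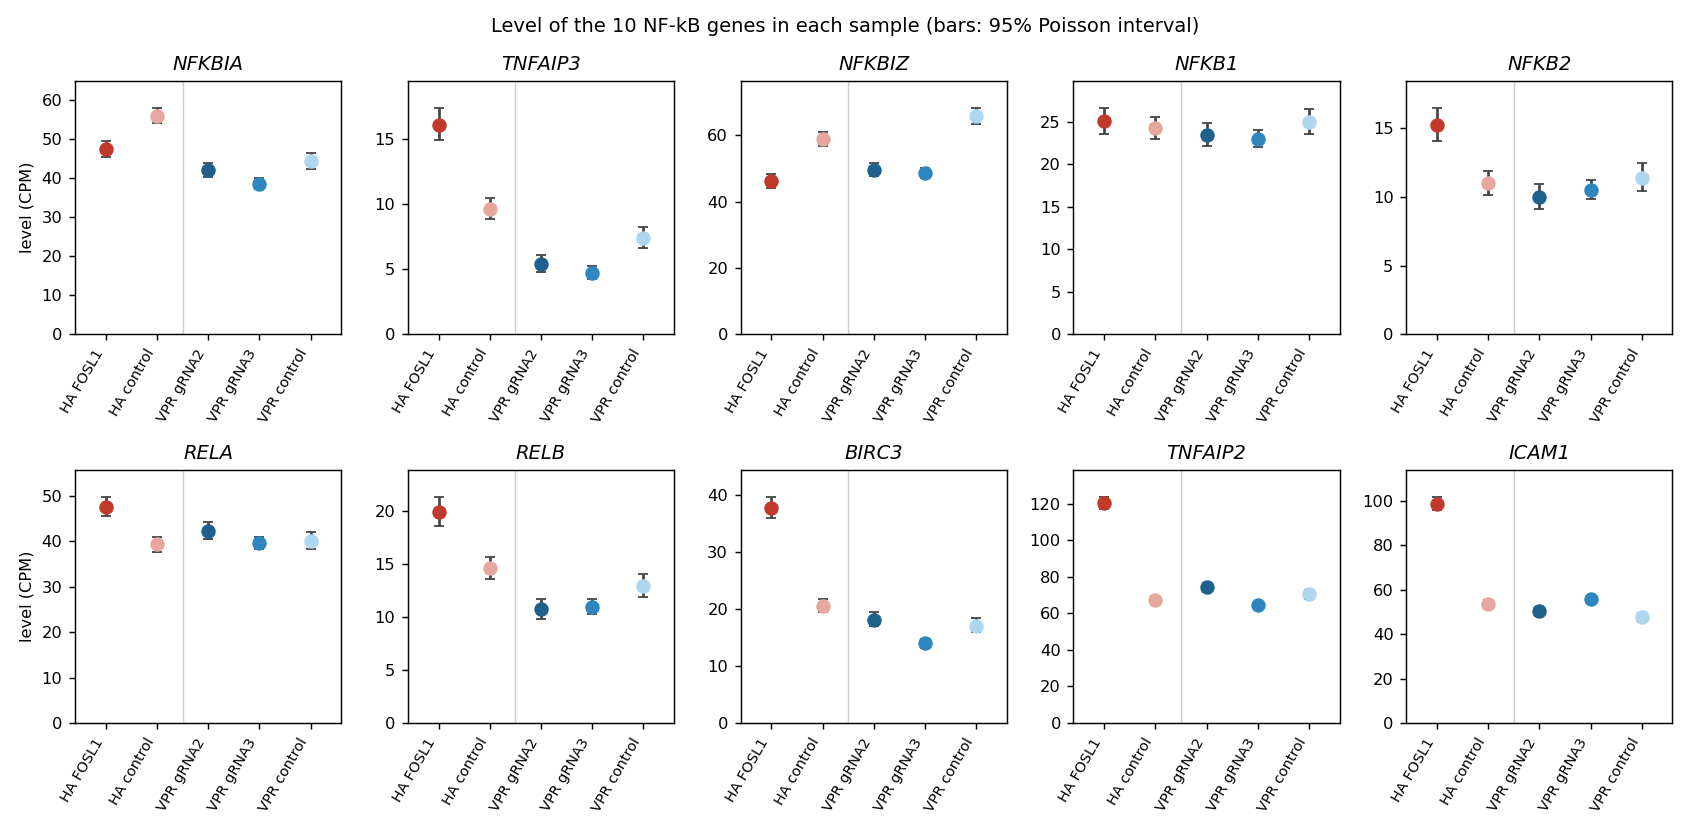
Level of each of the 10 genes in each sample, in CPM with 95% Poisson intervals (counting error only), 1 sample a group. The HA FOSL1 points of ICAM1 (98.7 CPM) and TNFAIP2 (120.3 CPM) stand above the other 4 samples, whereas the 3 FOSL1 points of NFKBIZ (46.3 to 49.7 CPM) lie below both controls.

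Counted against the rest of the transcriptome, 3 of the 7 genes whose HA samples averaged 20 CPM or more (BIRC3, TNFAIP2 and ICAM1) were at least 1.5-fold higher in HA FOSL1 cells, where 5.97% of all 5748 such genes were, and 0 were at least 1.5-fold lower, where 2.19% were. TNFAIP3, NFKB2 and RELB were below 20 CPM and were not counted, and TNFAIP3 also differed by more than 1.5-fold. In both guide arms 0 of 6 counted genes passed 1.5-fold in either direction, where 0.921% of all genes were higher and 0.591% lower with gRNA2, and 0.958% were higher and 0.836% lower with gRNA3. Over all 10 genes the median log2 ratio of HA FOSL1 was 0.43 (8 above 0), that of gRNA2 -0.08 (4 above 0) and that of gRNA3 -0.16 (1 above 0). For those of the 10 that averaged 20 CPM or more the medians were 0.27 (HA), -0.0003 (gRNA2) and -0.12 (gRNA3), beside 0.004 (HA), 0.009 (gRNA2) and 0.002 (gRNA3) for all genes at that level. Counting intervals lay wholly above 0 for 4 and below 0 for 2 of the 7 counted genes in the HA arm, where 38.3% and 36.3% of all genes did. For gRNA2 this was 1 above and 1 below of 6, against 26.8% and 21.3% of all genes, and for gRNA3 it was 1 above and 4 below of 6, against 29.7% and 27.7%. The guide arms share 1 control sample, so their ratios are not separate evidence of a direction. Between the controls, the log2 ratio of the VPR control over the HA control lay between -0.33 (NFKBIA and TNFAIP3) and 0.16 (NFKBIZ), with BIRC3 at -0.25. The share of all genes at 20 CPM with a lower ratio was 0.66% for TNFAIP3, 0.68% for NFKBIA, 1.2% for BIRC3, 2.9% for ICAM1 and 3.0% for RELB. It was 95.5% for NFKBIZ and between 51.4% and 71.0% for RELA, NFKB1, NFKB2 and TNFAIP2. The part of this difference between the controls in the HA and VPR effects was not tested.

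**Figure D3:**
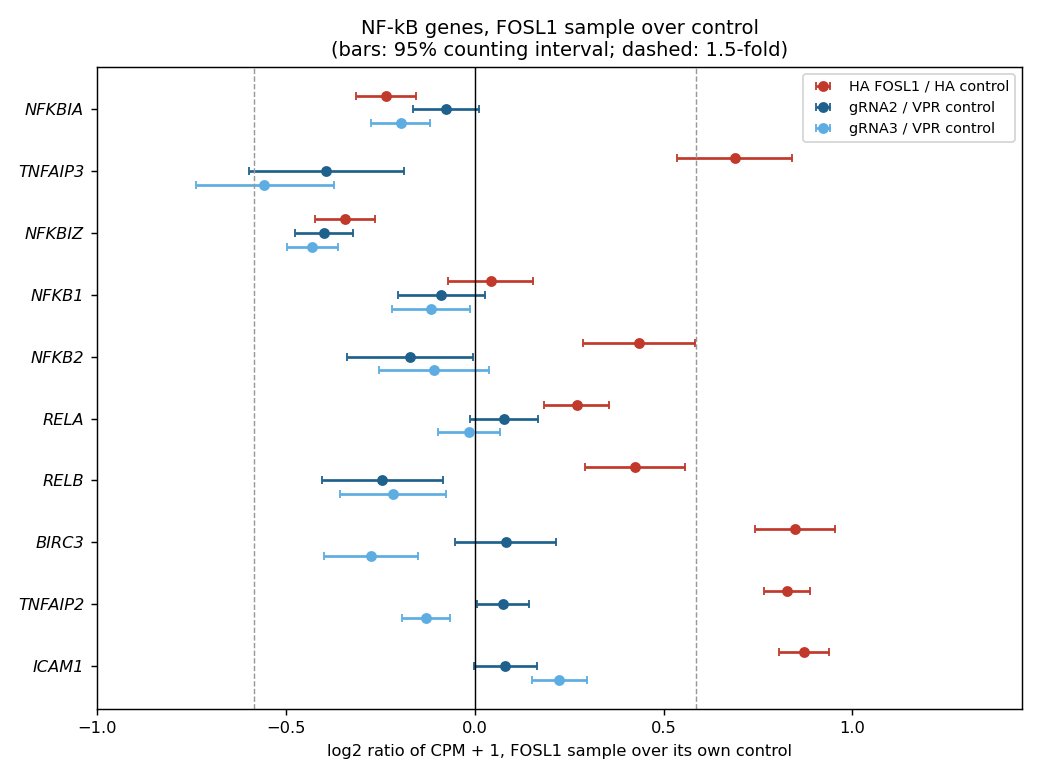
Log2 ratio of CPM + 1 of each FOSL1 sample over its own control, with 95% counting intervals, for the 10 genes, with 1 sample a group. BIRC3 (0.85), TNFAIP2 (0.83) and ICAM1 (0.87) lie farthest above 0 in the HA arm, and NFKBIZ is below 0 in all 3 arms.

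The shares of cells with at least 1 UMI were compared at equal depth, after each cell was thinned to 5000 UMIs. ICAM1 was found in 29.3% of HA FOSL1 cells, against 18.7% of HA control cells. It was found in 19.9% of gRNA2 cells and 20.7% of gRNA3 cells, against 18.7% of VPR control cells. Cells with at least 2 ICAM1 UMIs made up 10.1% of HA FOSL1 cells, against 3.89% of HA control cells, and positive cells averaged 1.65 UMIs in HA FOSL1 and 1.32 UMIs in the HA control. So both the share of ICAM1-positive cells and the UMIs within them were higher in HA FOSL1. Without thinning the ICAM1 shares were 63.0% in HA FOSL1 and 42.6% in the HA control.

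TNFAIP2 was found in 39.2% of HA FOSL1 cells against 24.1% of HA control cells, and BIRC3 in 14.4% against 9.39%. TNFAIP3 was found in 6.44% of HA FOSL1 cells and 4.07% of HA control cells, while its guide shares were 2.40% (gRNA2) and 2.03% (gRNA3), against 2.90% in the VPR control. NFKBIZ was found in 19.6% of HA FOSL1 cells against 24.4% of HA control cells, and in 22.7% (gRNA2) and 20.9% (gRNA3) of guide cells against 27.2% of VPR control cells. NFKBIA was found in 19.8% of HA FOSL1 cells and 23.8% of HA control cells.
Separate Clopper-Pearson intervals were seen in the HA arm for 4 genes with a higher share (TNFAIP3, BIRC3, TNFAIP2 and ICAM1) and 2 with a lower share (NFKBIA and NFKBIZ), and in each guide arm for 1, NFKBIZ, which was lower. Among all genes averaging 5 CPM or more, a floor that all 10 pass, 15.1% were higher and 13.4% lower in this way in the HA arm. With gRNA2 4.89% were higher and 4.64% lower, and with gRNA3 6.86% were higher and 7.27% lower. Thinned to 2500 UMIs, the NFKBIZ intervals overlapped in the HA arm (-1.92 percentage points, against -4.75 at 5000) and with gRNA2 (-2.53 points, against -4.47), and were apart with gRNA3. All 5 samples are of the same line, so no cell type in the pool gives a background share for these genes, and free RNA was not subtracted from the shares.

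**Figure D4:**
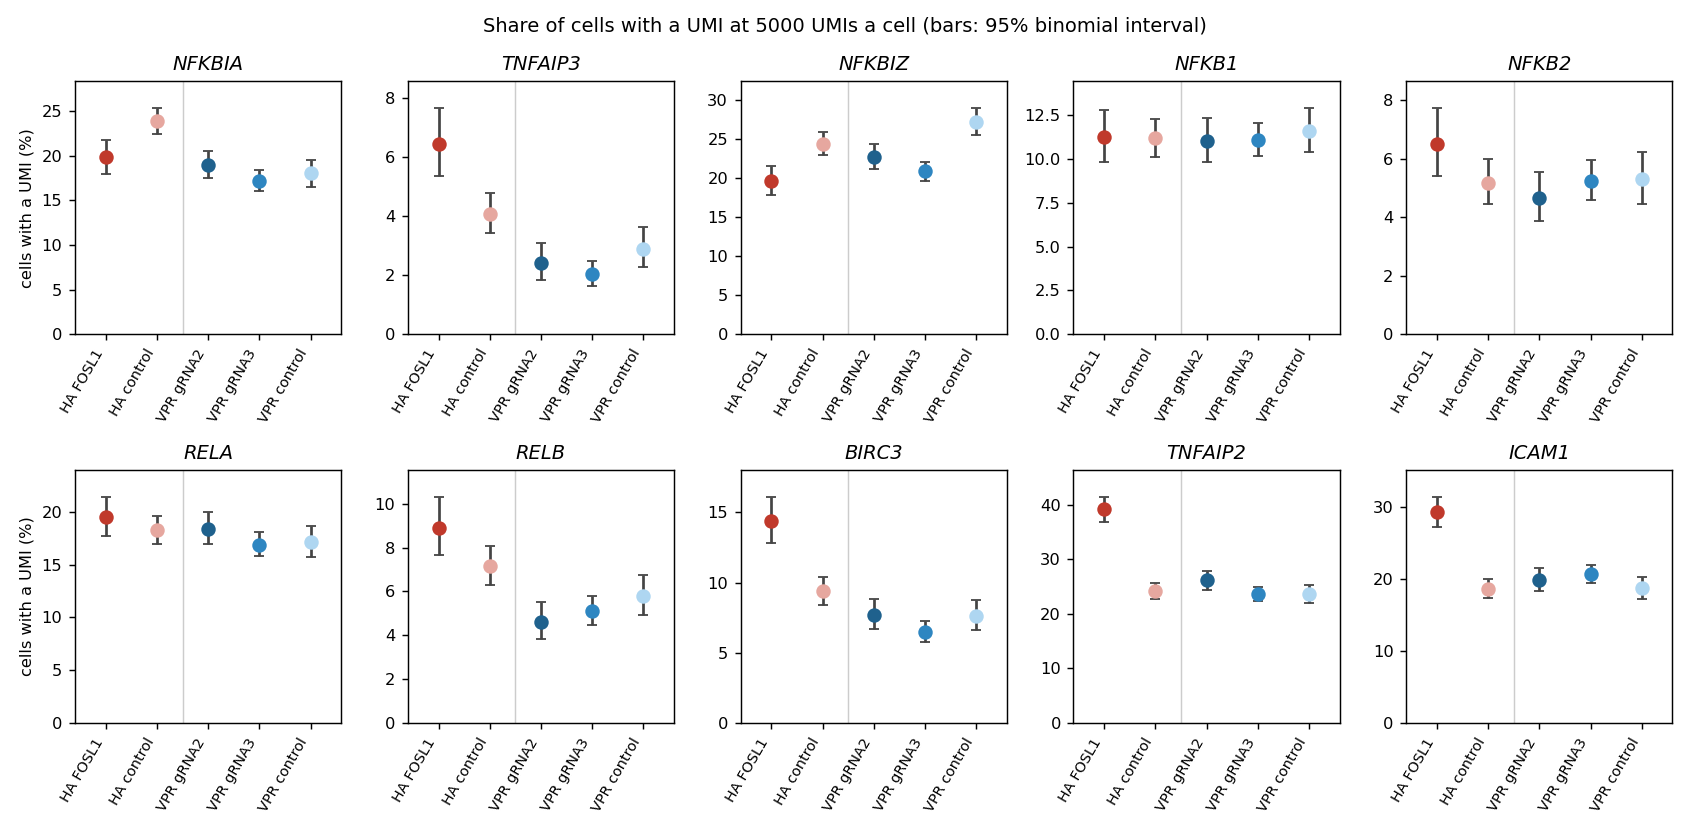
Share of cells with at least 1 UMI of each gene after thinning every cell to 5000 UMIs, with 95% Clopper-Pearson intervals, in percent, for the 5 samples. TNFAIP2 reaches 39.2% and ICAM1 29.3% of HA FOSL1 cells, and NFKBIZ is lower in each FOSL1 sample than in its control.

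Within single cells the 10 genes were only loosely tied. A cell thinned to 5000 UMIs had a UMI of 1.75 of the 10 genes on average in HA FOSL1, against 1.46 in the HA control, and of 1.37 (gRNA2) and 1.29 (gRNA3), against 1.38 in the VPR control. Cells with none of the genes made up 16.8% of HA FOSL1 and 22.4% of HA control cells, and cells with 5 or more made up 3.08% and 1.37% of them. Over the 45 gene pairs the median Spearman correlation across cells ran from 0.017 to 0.029 by sample. The highest was 0.17, for TNFAIP2 with ICAM1 in HA FOSL1 cells. ICAM1 was found there in 36.4% of cells with TNFAIP2 and in 24.8% of those without. It was 26.8% and 16.1% in HA control cells, 26.1% and 16.5% in VPR control cells, and 24.8% and 19.4% in gRNA3 cells. In gRNA2 cells it was 19.8% and 20.01%. The pair also had the highest correlation in both controls, at 0.13 (HA) and 0.12 (VPR), so it was not particular to HA FOSL1 cells. Correlations this weak, in sparse counts from 1 library, are given as a description only.

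A model over all 5 samples then tested 1 shared FOSL1 term for each gene, without asking if the effect was equal in both systems. It took the 3 FOSL1 samples as repeats of 1 effect beside a term for the system (edgeR's quasi-likelihood test, Benjamini-Hochberg adjustment over 15439 genes, threshold 0.05). NFKBIZ was the only one of the 10 called. It fell, where 0.706% of all genes tested fell and 0.9% rose, with a log2 change of -0.37 (SE 0.05, edgeR adjusted p = 0.0467). NFKBIZ was lower in 3 of 3 FOSL1 samples, but gRNA2 and gRNA3 were set against the same VPR control. With edgeR's RLE factors in place of TMM the adjusted p was 0.0509, and it was 0.178 without the gRNA2 sample and 0.214 without the gRNA3 sample, so the call did not outlast those changes. ICAM1 was at 0.49 (SE 0.17, edgeR adjusted p = 0.161), and DESeq2 called it with an adjusted p of 0.0435. The other 8 lay between -0.16 (NFKBIA) and 0.36 (TNFAIP2) with edgeR adjusted p-values of 0.18 to 0.929. FOSL1 itself was at 3.19 (SE 0.16, edgeR adjusted p = 0.011).

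The difference between the systems was tested with an interaction term (edgeR, 16071 genes), which is the FOSL1 effect in HA minus that in VPR. It was above 0 and called for 6 of the 10 genes and below 0 and called for 0, where 8.37% of all genes were called above 0 and 3.81% below. TNFAIP3 differed most, by 1.33 on the log2 scale (SE 0.15, edgeR adjusted p = 0.000200), with HA FOSL1 above its control and both guides below theirs. BIRC3 differed by 1.01 (SE 0.17, edgeR adjusted p = 0.00224), TNFAIP2 by 0.89 (SE 0.11, adjusted p = 0.000222) and ICAM1 by 0.74 (SE 0.10, adjusted p = 0.000558). The alternative-pathway subunits RELB, at 0.72 (SE 0.11, adjusted p = 0.00159), and NFKB2, at 0.64 (SE 0.13, adjusted p = 0.00647), completed the 6. RELA (0.27), NFKB1 (0.17), NFKBIZ (0.09) and NFKBIA (-0.08) were not called, with edgeR adjusted p-values of 0.0797 to 0.663. FOSL1 ran the other way, at -0.60 (edgeR adjusted p = 0.00418), since its counted RNA was higher over control with the guides. This fit has 1 residual degree of freedom, from the 2 guide samples, and assumes that the lone HA samples vary as the guides do. Its p-values therefore measure the spread between guides in 1 pool, not between cultures.

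**Figure D5:**
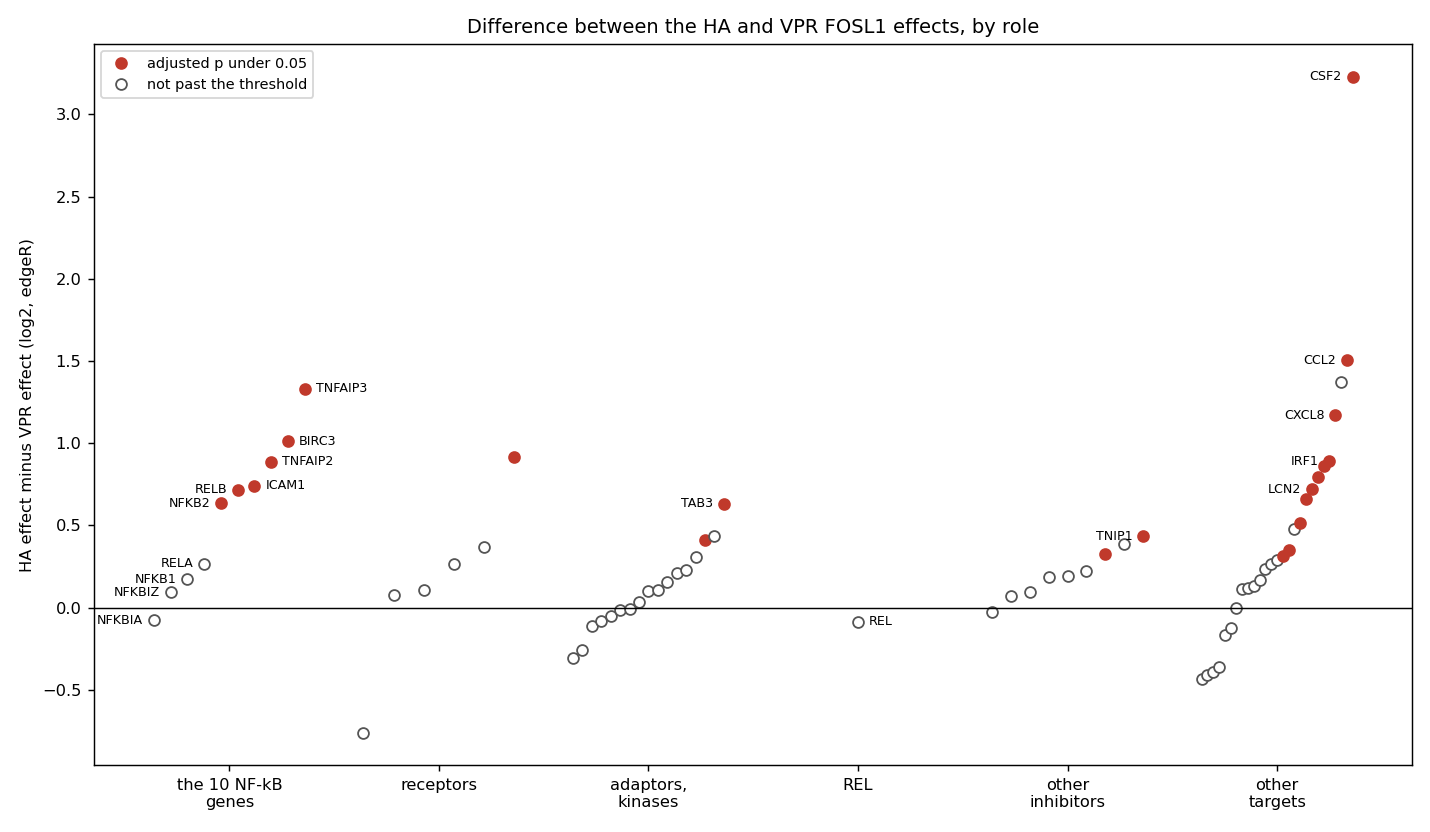
FOSL1 effect in HA minus FOSL1 effect in VPR (y axis, log2, edgeR interaction term over 5 samples) for the 10 genes and, by role on the x axis, the 60 further pathway genes tested, with 1 point a gene and filled points for an adjusted p under 0.05. The 6 called of the 10 genes lie between 0.64 (NFKB2) and 1.33 (TNFAIP3), and every filled point in the other groups is also above 0.

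The rest of the pathway was read from 70 further genes, grouped by role. In the HA arm 28 of them averaged 20 CPM or more, 2 were at least 1.5-fold higher, where 5.97% of all genes were, and 0 lower, with a median log2 ratio of 0.16. With each guide 25 reached 20 CPM and 0 passed 1.5-fold, and the medians were -0.01 (gRNA2) and -0.03 (gRNA3). The additive edgeR model called 0 of 58 tested, with 14 at an unadjusted p under 0.05, where 26.0% of all 15439 genes were. DESeq2 called 2 of the 57 to which it gave an adjusted p, where it called 1117 of all 14931 such genes. Without a filter on low counts edgeR called 7 of 65, where it called 1984 of all 23639 genes. The 2 that DESeq2 called were IRAK1, a kinase below interleukin-1 and Toll-like receptors, at 0.31 in edgeR (adjusted p = 0.0546), and the chemokine CCL20, at -0.97 (edgeR adjusted p = 0.0513).

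Of all genes tested, 8.37% had an interaction called above 0 and 3.81% below, the background for each count by role. Among the further pathway genes the interaction was above 0 and called for 16 of 60 tested and below 0 for 0. Among receptors this was 1 of 6, IL1RAP, the co-receptor for interleukin-1, at 0.92 (edgeR adjusted p = 0.0158). IL1RAP stood at 5.16 CPM in HA FOSL1 cells against 3.02 CPM in the HA control, and at 4.39 CPM (gRNA2) and 3.88 CPM (gRNA3) against 4.47 CPM in the VPR control. TNFRSF1A, the main TNF receptor, had log2 ratios of 0.27 (HA), 0.05 (gRNA2) and 0.03 (gRNA3), and LTBR, which feeds the alternative pathway, of 0.06 (HA), 0.02 (gRNA2) and -0.01 (gRNA3).

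Of the adaptors and kinases 2 of 17 were called, TAB3 at 0.63 (edgeR adjusted p = 0.00883) and MYD88 at 0.41 (edgeR adjusted p = 0.0417). MYD88, the adaptor of interleukin-1 and Toll-like receptors, was at 0.11 in the HA arm and at -0.23 (gRNA2) and -0.27 (gRNA3) in the guide arms. Among adaptors and kinases at 20 CPM the farthest from their controls were IKBKG, the regulatory subunit of the IkB kinase complex, at log2 ratios of 0.37 (HA), 0.23 (gRNA2) and 0.10 (gRNA3), and IRAK1, at 0.33 (HA), 0.25 (gRNA2) and 0.25 (gRNA3). IKBKG has a near-identical pseudogene copy, so its counts are uncertain. The subunit REL was lower in each FOSL1 sample, at -0.25 (HA), -0.11 (gRNA2) and -0.18 (gRNA3), and was called in neither model.

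Inhibitors were called in 2 of 9 cases: TNIP1, which works with the TNFAIP3 protein, at 0.44 (edgeR adjusted p = 0.00552), and BCL3, a nuclear IkB protein, at 0.33 (edgeR adjusted p = 0.0462). TNIP1 stood at 63.1 CPM in HA FOSL1 cells, against 44.8 CPM in the HA control. BCL3 had log2 ratios of -0.13 (gRNA2) and -0.23 (gRNA3). TNIP2 was at 0.18 in the HA arm.

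Target genes had the most calls, 11 of 27, all above 0. CXCL8, a neutrophil chemokine, stood at 74.5 CPM in HA FOSL1 cells, against 27.4 CPM in the HA control, a log2 ratio of 1.41, with an interaction of 1.17 (edgeR adjusted p = 0.000295). CXCL1 stood at 32.5 CPM in HA FOSL1 cells, against 16.7 CPM in the HA control, with an interaction of 0.80. In the guide arms CXCL8 had log2 ratios of 0.13 (gRNA2) and 0.39 (gRNA3, 0.27 to 0.50), and CXCL1 of -0.09 (gRNA2) and 0.34 (gRNA3, 0.21 to 0.48). CXCL1 and CXCL8 were the 2 genes past 1.5-fold in the HA arm, and reads of CXCL1 may be shared with its close relatives CXCL2 and CXCL3.

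IRF1 (0.89) and TAP1 (0.86), of interferon response and antigen presentation, LCN2 (0.72) and SAA1 (0.66), secreted acute-phase proteins, SOD2 (0.52), BCL2L1 (0.35) and SAA2 (0.31) were also called. Their interactions joined a positive HA ratio to a negative guide ratio in several cases. LCN2 was at 229.2 CPM in HA FOSL1 cells against 195.8 CPM in the HA control, and at 124.8 CPM (gRNA2) and 120.4 CPM (gRNA3) against 169.7 CPM in the VPR control. IRF1 had log2 ratios of 0.48 (HA), -0.33 (gRNA2) and -0.41 (gRNA3). SAA2 was below its control in each arm, at -0.10 (HA), -0.44 (gRNA2) and -0.35 (gRNA3). SAA1 and SAA2 are near-identical, so their counts are uncertain. The remaining calls, CCL2 and CSF2, rested on low counts, and CSF2 had between 2 and 19 UMIs in a sample. Over the targets at 20 CPM the median log2 ratios were 0.23 (HA), -0.18 (gRNA2) and -0.27 (gRNA3).

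The genes most like ICAM1 and NFKBIZ were found by the distance between profiles over the 5 samples (Euclidean, log2 of CPM + 1 centred per gene, among 5747 genes at 20 CPM). Nearest to ICAM1 were PRKAB2 (0.177) and RIPK2 (0.190). RIPK2, a kinase that links NOD receptors to NF-kB, stood at 45.1 CPM in HA FOSL1 cells against 24.2 CPM in the HA control, and at 23.7 CPM (gRNA2) and 23.3 CPM (gRNA3) against 23.9 CPM in the VPR control. Nearest to NFKBIZ were DLG3 (0.0994), HERPUD1 (0.114) and MPHOSPH6 (0.116). HERPUD1, a gene of the endoplasmic reticulum stress response, stood at 73.3 CPM in HA FOSL1 cells against 101.4 CPM in the HA control, and at 80.3 CPM (gRNA2) and 82.1 CPM (gRNA3) against 103.5 CPM in the VPR control. With 5 samples and 5747 genes, such neighbours describe these libraries only.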

How the data were processed

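Cells of 5 MDA-MB-468 samples were pooled in 1 library of 10x 3' v3 chemistry. The deposited matrix holds raw UMI counts made by the authors with Cell Ranger 4, per the file headers, on hg38, per the submitters' processing notes. The deposited assignment table gives a hashtag to 15371 of 21228 called cells, with the assignment probability as a fraction (at least 0.9 here). No use was made of 5181 multiplets (24.4%), 402 unassigned cells or 274 blanks. Doublets within a sample share a hashtag and were not sought. The labels speak of a pool of 6 stained samples and about 16000 loaded cells. Hashtags with the prefix GOF, where the titles have HA, were taken as the HA samples by elimination, as the only non-VPR samples in the labels.

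Cells with at least 1500 genes and at most 20% mitochondrial UMIs were kept, and counts were summed per sample. Ratios are log2 of CPM + 1, which understates low genes. A 1.5-fold difference was counted for genes whose 2 samples averaged 20 CPM or more. Free RNA was read from 48909 barcodes with 10 to 100 UMIs. Shares used cells of at least 5000 UMIs, thinned to 5000, which left out 5 to 13 cells per sample. Intervals (95%, Poisson for levels, Clopper-Pearson for shares) cover counting error only. Models used edgeR 4.0.16 (quasi-likelihood, TMM, filterByExpr) and DESeq2 1.42.0 as an alternative, in R 4.3.3, and the procedures were tested on simulated data. The other steps used Python 3.11.15. Promoter sequences are RefSeq's (GRCh38.p14).

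The 10 genes, the 70 further pathway genes and the marker lists were chosen with earlier results of these data known. All 10 are named in each comparison. Of the others, the text names per group and arm the 2 farthest from control among those at 20 CPM, those that edgeR called, and REL, and for likeness the 3 genes nearest to ICAM1 and to NFKBIZ, of which 1 is not reported here. SOD2 has 2 entries in the feature table, of which the one with more UMIs was used, and 48 genes in all share a symbol.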

Additional observations from a re-analysis of the deposited data

Results flagged for a closer look

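The FOSL1 effect differed between the HA and VPR systems for 6 of the 10 genes by the test of the difference itself (edgeR interaction term, HA effect minus VPR effect, adjusted p under 0.05). The difference on the log2 scale was 1.33 for TNFAIP3, 1.01 for BIRC3, 0.89 for TNFAIP2, 0.74 for ICAM1, 0.72 for RELB and 0.64 for NFKB2. In TNFAIP3, RELB and NFKB2 the HA FOSL1 sample was above its control and both guide samples were below theirs. In ICAM1 all 3 FOSL1 samples were above their controls, and in BIRC3 and TNFAIP2 gRNA2 was above and gRNA3 below the VPR control. The counting intervals of ICAM1 and BIRC3 with gRNA2, and of NFKB2 with gRNA3, held 0, so those directions lay within counting error. Each HA group is 1 sample.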

How the results depend on the processing

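Each group was 1 sample in 1 pool, so intervals show counting error and not the spread between cultures. No paired analysis was possible because each group holds 1 sample and the labels give no shared replicate numbers. The count of the 10 genes at least 1.5-fold from control stayed within 1.5 times of its main value under every alternative scaling, pseudocount, minimum, cell set, free-RNA correction and control that was run. The median log2 ratio in the HA arm was 0.43 with a minimum of 5 CPM and with none, against 0.27 at 20 CPM, where 3 genes are not counted. Against the control of the other system, the log2 ratio of NFKBIA in HA FOSL1 turned to 0.09, and those of BIRC3 and ICAM1 in gRNA2 turned to -0.17 and -0.09. TMM and DESeq2 scaling moved the median of all genes by at most 0.06.

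The number of genes whose shares had separate intervals depended on depth. Thinned to 2500 UMIs, 1 was lower in the HA arm and 0 with gRNA2, as NFKBIZ was no longer apart in either. At that depth TNFAIP3, RELA, BIRC3, TNFAIP2 and ICAM1 were higher in the HA arm. Thinned to 10000 UMIs, 7 were higher in the HA arm and 3 lower with gRNA3. Without thinning, 8 were higher and 0 lower in the HA arm, 3 were higher with gRNA2, and with gRNA3 3 were higher and 2 lower. In that setting the difference in share in the HA arm turned to 0.375 percentage points for NFKBIA and 1.27 for NFKBIZ, where deeper HA FOSL1 cells were not brought to equal depth. The share of all genes with separate intervals was taken only at the main depth. The counts at the other depths and without thinning therefore have no background beside them, and say nothing particular to these genes.

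The additive model called 248 genes, 1984 with every gene that has a UMI, 375 without the 10% of cells with the most UMIs and 1117 with DESeq2. When gRNA2 was left out edgeR called 0 genes, with 2614 under an unadjusted p of 0.05. When gRNA3 was left out it also called 0, with 2371, so 0 of the 10 genes in each case. With RLE factors 0 of the 10 were called, and with every gene or with DESeq2 2 were (NFKBIZ and ICAM1). The cause was not tested. The interaction called 1958 genes and between 2110 and 2480 in its 4 alternatives, with the same 6 of the 10 genes in each. Leaving out a guide there leaves no residual degrees of freedom, so no such test was run. Of 500 single-gene values under the alternatives, 24 had the opposite sign to the main value, of which 2 (the unthinned shares above) had separate intervals in the main setting. In the additive model ICAM1 passed the threshold in 2 alternatives and NFKBIZ missed it in 3.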
